A study of Mus musculus with 10 samples.

Results

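The genes described here are 46 genes of the blood vessel lining and of angiogenesis, measured in pancreatic islets of diabetic db/db mice and lean db/+ mice. They were chosen by symbol, from a list of endothelial markers, of the vascular endothelial growth factor (VEGF) and angiopoietin axes, of Notch ligands and receptors and of other vascular signals. All 46 were found on the array, by 50 of its 23512 probes, and all 46 were among the 19557 genes tested. The list consists of symbols, and it was drawn up with earlier results of these data known, so its share of changed genes is a description.

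Islets were isolated at 9 weeks of age from obese db/db mice, which lack working leptin receptor because both copies of its gene carry the db mutation, and from lean db/+ controls, which carry it in 1 copy, all on the C57BLKS/J background. Each genotype has 5 biological replicates, and the labels do not say whether a replicate is 1 mouse or a pool. The labels describe db/db mice of that age as severely hyperglycaemic, with insulin levels that are still raised but have fallen since an earlier age. Each replicate had 1 array of 2 colours, with its own islet RNA in the Cy5 channel and a db/+ islet reference of the same age in the Cy3 channel. Every value below that is called a log2 ratio is the log2 of Cy5 over Cy3 on 1 array, and every log2 difference is the db/db mean minus the db/+ mean of these ratios. Values in lists stand in the order of replicates 1 to 5. Adjusted p-values are from limma, fitted over all genes, and a gene is said to have risen or fallen where its adjusted p was under 0.05. Because the reference is itself db/+ islet RNA, db/+ ratios lie near 0 by construction. Whether the reference was made from the same db/+ samples is not stated. A shared source would narrow the db/+ group and make SE and p-values too small. Intensities are in the arbitrary units of the deposited table and were mostly rounded to 0.01, so ratios of dim probes are coarse.

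Islets are dense in capillaries with a fenestrated endothelium, through which hormones reach the blood. VEGF-A made by beta cells is known to maintain these capillaries, acting on the receptors Kdr and Flt1 of endothelial cells with neuropilins as co-receptors. Angiopoietins, which act on the receptor Tek, and Notch ligands further adjust vessel growth and stability.

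Endothelial and angiogenesis genes changed in both directions in db/db islets. Adhesion and surface genes such as Vcam1, Plvap and Eng, the transcription factor Sox18, the Notch ligand Jag1 and the vasoconstrictor gene Edn1 were higher. The VEGF ligands Vegfa and Vegfb, the receptors Flt1 and Tie1 and the co-receptor Nrp1 were lower. Other genes of the VEGF axis, the ligands Vegfc and Pgf and the co-receptor Nrp2, were higher. Endothelial genes that did not pass the test included Pecam1, Cdh5, Esam, Kdr and Tek. Cdh5 and Tek were read only in rounding steps, at 0.108 and 0.066 reference units. Of the 46 genes, 20 rose and 7 fell, together 58.7%, against 35.2% of all genes tested (17.1% higher and 18.1% lower). Without probes under the median intensity, 16 of 33 genes rose and 7 fell, against 2381 higher and 3051 lower of all 10458 tested. The share of all genes called was thus larger over the brighter probes. The median log2 difference was 0.30 over the 46 genes and -0.02 over all genes. All 5 db/db values lay above all 5 db/+ values for 13 genes and below them for 5, together 39.1%, against 26.1% of the 18627 genes with 10 values (12.9% above and 13.2% below). Vcam1, Edn1, Sox18, Sele and Jag1, 5 of the 46 genes, passed with a fitted change of at least 2-fold, as did 4.64% of all genes tested, although Sele was too dim for its size to be relied on. After quantile normalization of the ratios between arrays, which gives all arrays the same spread, 9 of the 46 genes were higher and 3 lower. The shares of all genes dropped as well, to 8.57% higher and 7.71% lower. The 15 calls lost there, each with its direction kept, were those of Eng, Plvap, Cldn5, Icam2, Sele, Cav1, Vegfc, Pgf, Flt1, Nrp1, Tie1, Dll4, Dll1, Notch4 and Ednrb. In the Cy5 signal without the reference, Cav1, Vegfc and Notch4 lost their calls, while Vwf (0.79), Selp (0.89), Pdgfb (-0.32) and Flt4 (-0.40) passed, Flt4 with its sign turned. The share of endothelial cells in the islets and the RNA per endothelial cell cannot be told apart in bulk islet RNA.

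**Figure D1:**
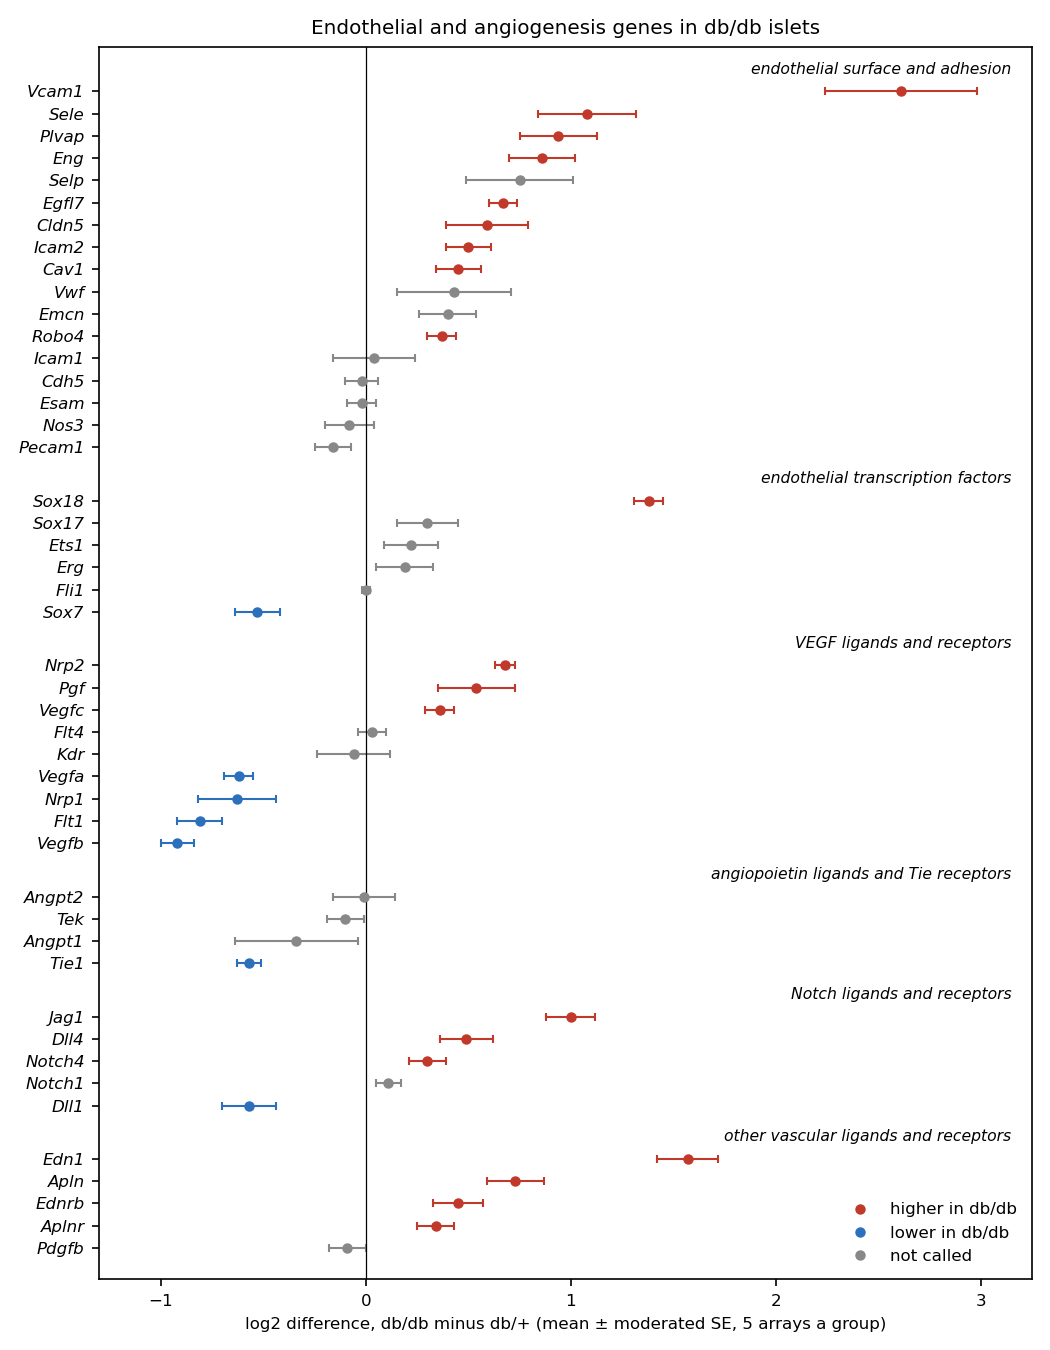
Log2 difference of db/db minus db/+ (horizontal axis, point with moderated standard error, 5 arrays a group) for the 46 genes, grouped by role. Red genes rose, blue genes fell and grey genes did not pass the limma test; Vcam1 lies farthest to the right at 2.61 and Vegfb farthest to the left at -0.92.

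In the surface and adhesion group, 9 of 17 genes rose, 52.9% against 17.1% of all genes. None of the other 8 passed the test, and the median log2 difference of the group was 0.45. Vcam1, the adhesion molecule on which leukocytes settle, had log2 ratios of 1.05, -1.15, -0.29, -0.16 and -0.74 in db/+ and 2.54, 2.72, 1.89, 2.22 and 2.42 in db/db. The lowest db/db value was above the highest db/+ value, which was that of replicate 1. Vcam1 thus rose 6.12-fold (log2 difference of 2.61 ± 0.37 SE, adjusted p = 0.000493), and its mean Cy5 intensity was 2.61 units in db/db and 0.492 units in db/+. A dimmer probe of Vcam1 gave a log2 difference of 2.77 ± 0.26 SE (adjusted p over all probes = 4.54e-05).

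Plvap, which forms the diaphragms of fenestrae and caveolae, had log2 ratios of 0.39, 0.04, -0.29, -0.53 and -0.32 in db/+ and 1.16, 0.93, 0.44, 0.55 and 0.92 in db/db. The groups did not overlap, although db/db replicate 3 and db/+ replicate 1 lay close to each other, and Plvap rose 1.92-fold (log2 difference of 0.94 ± 0.19 SE, adjusted p = 0.00423). Eng, or endoglin, a co-receptor of the TGF-beta family, gave 0.13, 0.20, -0.30, -0.47 and -0.25 in db/+ and 0.96, 0.86, 0.58, 0.35 and 0.84 in db/db. It rose 1.81-fold with no overlap (log2 difference of 0.86 ± 0.16 SE, adjusted p = 0.00248). Egfl7, a factor secreted by endothelial cells, had ratios of 0.00, -0.01, -0.24, 0.12 and -0.05 in db/+ and 0.68, 0.71, 0.51, 0.58 and 0.69 in db/db, a tight db/db group that lay wholly above db/+. Its rise was 1.59-fold (log2 difference of 0.67 ± 0.07 SE, adjusted p = 6.7e-05).

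Smaller rises of Icam2, Robo4 and Cldn5 were also separated between the groups. Icam2, an adhesion molecule of resting endothelium, showed 0.30, 0.06, -0.13, -0.29 and -0.19 in db/+ and 0.37, 0.61, 0.42, 0.32 and 0.51 in db/db, and rose 1.41-fold (log2 difference of 0.50 ± 0.11 SE, adjusted p = 0.00612). The lowest db/db ratio of Icam2 was just above that of db/+ replicate 1. Robo4, the endothelial roundabout receptor, showed -0.02, -0.10, -0.09, -0.25 and -0.11 in db/+ and 0.30, 0.34, 0.26, 0.04 and 0.33 in db/db, with db/db replicate 4 well below its group, and rose 1.29-fold (log2 difference of 0.37 ± 0.07 SE, adjusted p = 0.00209). For the tight junction gene Cldn5 the ratios were 0.26, -0.26, 0.13, 0.13 and 0.24 in db/+ and 0.35, 1.07, 1.21, 0.32 and 0.50 in db/db, with replicates 2 and 3 highest in db/db. Cldn5 rose 1.51-fold (log2 difference of 0.59 ± 0.20 SE, adjusted p = 0.0408), and its call was lost on leaving out any of 8 single arrays, which were all db/+ arrays and db/db replicates 2, 3 and 5 (adjusted p up to 0.0902).

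Cav1, the coat protein of caveolae, rose 1.36-fold (log2 difference of 0.45 ± 0.11 SE, adjusted p = 0.0094), with db/+ replicate 1 at 0.42 inside the db/db range of 0.31 to 0.63. The leukocyte selectin Sele rose as well (log2 difference of 1.08 ± 0.24 SE, adjusted p = 0.00636), from a probe of only 0.00967 units in the reference, at which the size of its change is not reliable. Selp, its platelet and endothelial counterpart, gave a log2 difference of 0.75 ± 0.26 SE and missed the threshold (adjusted p = 0.0515). Without db/+ replicate 1, which stood apart at 0.95, Selp passed with a log2 difference of 1.00 (adjusted p = 0.000758). Emcn, an endothelial sialomucin, lay just short as well (log2 difference of 0.40 ± 0.14 SE, adjusted p = 0.0554) and passed without db/+ replicate 1 (0.0183) or replicate 2 (0.0358). The von Willebrand factor gene Vwf was dim, with a reference of 0.026 units (log2 difference of 0.43 ± 0.28 SE, adjusted p = 0.281), and passed without db/+ replicate 1 (0.0433).

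The defining endothelial markers Pecam1 and Cdh5 did not follow these rises. Pecam1, a junction protein, had log2 ratios of 0.11, 0.08, -0.09, -0.40 and -0.26 in db/+ and -0.23, -0.28, -0.27, -0.26 and -0.31 in db/db. All db/db values lay within the wider db/+ range (log2 difference of -0.16 ± 0.09 SE, adjusted p = 0.224), although without db/+ replicate 4 the log2 difference was -0.23 and passed (adjusted p = 0.0409). Cdh5, which encodes VE-cadherin of endothelial junctions, gave 0.00, 0.12, -0.17, -0.14 and 0.00 in db/+ and -0.15, 0.14, -0.15, -0.14 and 0.00 in db/db, with full overlap (log2 difference of -0.02 ± 0.08 SE, adjusted p = 0.854). At 0.108 reference units the ratios of Cdh5 moved in rounding steps, so a small change could be missed. The junction gene Esam (log2 difference of -0.02 ± 0.07 SE, adjusted p = 0.852), the inducible adhesion gene Icam1 (log2 difference of 0.04 ± 0.20 SE, adjusted p = 0.914) and the nitric oxide synthase gene Nos3 (log2 difference of -0.08 ± 0.12 SE, adjusted p = 0.622) did not pass either. Icam1 was among the brightest of the genes at 7.53 reference units, whereas Nos3 was near the dim end at 0.054 units.

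**Figure D2:**
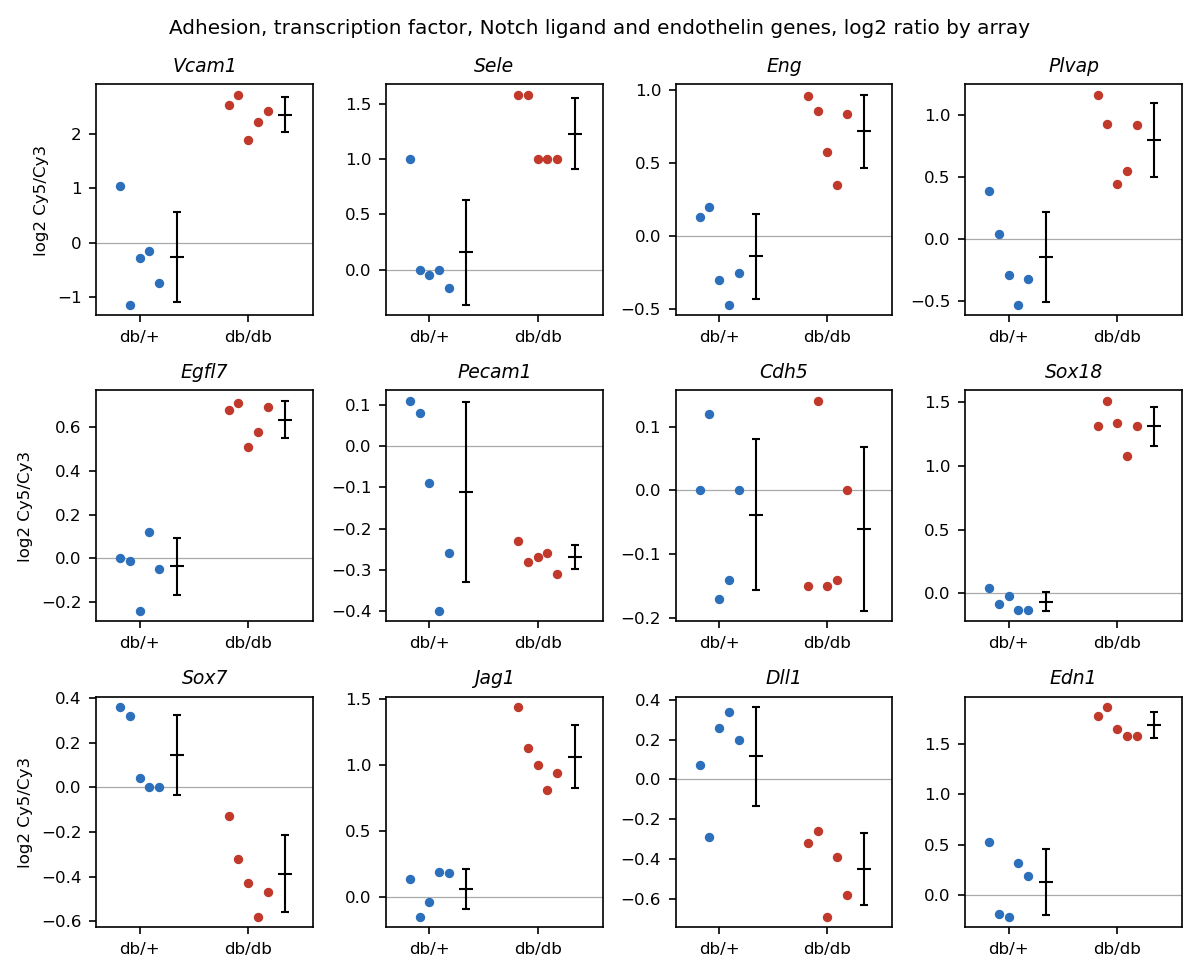
Log2 ratio of Cy5 over Cy3 (vertical axis, scaled to each gene) for 12 genes on the 5 db/+ (blue) and 5 db/db (red) arrays, with mean and SD in black. Vcam1, Eng, Plvap, Egfl7, Sox18, Jag1 and Edn1 were higher on every db/db array and Sox7 lower, while Pecam1 and Cdh5 overlapped.

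The endothelial transcription factors did not move together. Sox18, Sox7 and Sox17 form the SoxF subfamily, which acts in vessel development. Log2 ratios of Sox18 were 0.04, -0.08, -0.02, -0.13 and -0.13 in db/+ and 1.31, 1.51, 1.34, 1.08 and 1.31 in db/db, with a wide gap between the groups. It rose 2.60-fold (log2 difference of 1.38 ± 0.07 SE, adjusted p = 2.04e-06). Sox7 went the other way, with 0.36, 0.32, 0.04, 0.00 and 0.00 in db/+ and -0.13, -0.32, -0.43, -0.58 and -0.47 in db/db. Every db/db value of Sox7 was below every db/+ value, and it fell 1.44-fold (log2 difference of -0.53 ± 0.11 SE, adjusted p = 0.00362). Sox17 gave no call (log2 difference of 0.30 ± 0.15 SE, adjusted p = 0.163), and neither did its dimmer probe, at 0.028 reference units. The ETS factors Erg (log2 difference of 0.19 ± 0.14 SE, adjusted p = 0.313) and Ets1 (log2 difference of 0.22 ± 0.13 SE, adjusted p = 0.226) did not pass, and Fli1 was listed with the same rounded intensity in both channels on every array, at 0.035 units, so that no change could be read from it.

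Promoter windows of Edn1 and Vegfa are shown as examples of a ligand gene that rose and a ligand gene that fell. The RefSeq sequences used here (GRCm38.p6) covered 29 of the 46 genes with windows of 300 bases, from 250 before to 50 after the start. Capitals mark the hypoxia-inducible factor core ACGTG, the GATA motif AGATAA and the AP-1 motif TGANTCA on either strand, none of which overlap in these windows. The windows lie at chr13:42301226-42301525 (plus strand) for Edn1 and at chr17:46032328-46032627 (minus strand) for Vegfa, the latter being the first listed of 2 windows.
Edn1: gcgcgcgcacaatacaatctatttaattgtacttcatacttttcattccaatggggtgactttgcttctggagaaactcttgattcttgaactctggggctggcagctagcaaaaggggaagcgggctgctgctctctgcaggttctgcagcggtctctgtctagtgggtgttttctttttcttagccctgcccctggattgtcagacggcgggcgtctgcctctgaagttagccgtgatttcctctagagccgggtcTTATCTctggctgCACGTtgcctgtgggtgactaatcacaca
Vegfa: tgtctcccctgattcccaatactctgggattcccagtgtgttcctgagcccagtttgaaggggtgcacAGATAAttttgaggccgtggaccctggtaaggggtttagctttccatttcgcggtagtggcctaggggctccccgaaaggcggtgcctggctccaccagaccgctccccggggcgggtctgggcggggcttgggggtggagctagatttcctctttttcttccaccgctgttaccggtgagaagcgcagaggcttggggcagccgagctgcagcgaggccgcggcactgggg
The Edn1 window held 1 hypoxia-inducible factor core and 1 GATA motif, and the Vegfa window held 1 GATA motif. Of all 32851 windows, 19.6% held the first motif, 11.2% the GATA motif and 7.81% the AP-1 motif. Of the 37 windows of these 29 genes, 3, 4 and 4 held them, which are descriptions of these letters and not sites of binding.

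Of the 9 VEGF ligands and receptors, 3 rose and 4 fell, together 77.8% against 35.2% of all genes. Vegfa, the main growth factor of islet capillaries, had log2 ratios of -0.16, 0.03, -0.17, 0.00 and 0.06 in db/+ and -0.82, -0.49, -0.61, -0.64 and -0.77 in db/db. All db/db values were below all db/+ values, and Vegfa fell 1.53-fold (log2 difference of -0.62 ± 0.07 SE, adjusted p = 0.000192), from a mean Cy5 intensity of 1.27 to 0.794 units. Vegfb, a ligand of Flt1 linked to fatty acid handling, gave 0.16, 0.19, 0.02, -0.03 and -0.03 in db/+ and -0.73, -0.78, -1.12, -0.88 and -0.79 in db/db. Again the groups were apart, and Vegfb fell 1.89-fold (log2 difference of -0.92 ± 0.08 SE, adjusted p = 2.91e-05), which was the largest fall over the 46 genes as tested, each by its brightest probe.

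The other 2 ligands were higher. Vegfc, known as a lymphatic growth factor acting through Flt4, showed 0.00, -0.13, 0.21, 0.00 and -0.10 in db/+ and 0.21, 0.39, 0.42, 0.49 and 0.28 in db/db, so that the lowest db/db and the highest db/+ value both read 0.21 and were apart only beyond the printed digits. It rose 1.28-fold (log2 difference of 0.36 ± 0.07 SE, adjusted p = 0.00446) at the low reference intensity of 0.16 units. Pgf, placental growth factor, which binds Flt1, rose 1.46-fold (log2 difference of 0.54 ± 0.19 SE, adjusted p = 0.0498), with overlap between -0.37 to 0.44 in db/+ and 0.04 to 0.84 in db/db. Its call was lost on leaving out any of 8 single arrays, all except db/+ replicate 1 and db/db replicate 4 (adjusted p up to 0.11).

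Among the receptors, Flt1, which binds VEGF-A with high affinity but signals weakly, had log2 ratios of -0.36, -0.23, -0.18, 0.17 and 0.05 in db/+ and -0.70, -0.99, -0.94, -0.87 and -1.09 in db/db. Each db/db value was below the lowest db/+ value, and Flt1 fell 1.75-fold (log2 difference of -0.81 ± 0.11 SE, adjusted p = 0.000407). Kdr, the main signalling receptor of VEGF-A, gave -0.55, -0.22, -0.31, 0.35 and 0.23 in db/+ and -0.19, -0.46, 0.08, 0.04 and -0.26 in db/db. The db/+ values of Kdr alone spanned the whole db/db range, and its difference did not pass (log2 difference of -0.06 ± 0.18 SE, adjusted p = 0.847). The lymphatic receptor Flt4 did not pass (log2 difference of 0.03 ± 0.07 SE, adjusted p = 0.765), and in the Cy5 signal without the reference its log2 difference was -0.40 (adjusted p = 0.0291).

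The 2 neuropilins, co-receptors of VEGF and semaphorins, went in opposite directions. Nrp1 fell 1.55-fold on its brighter probe (log2 difference of -0.63 ± 0.19 SE, adjusted p = 0.0303), with db/+ values of -0.26 to 0.74 and db/db values of -0.81 to -0.16. This call was lost without db/+ replicate 1 or 5 or db/db replicate 1, 3 or 4 (adjusted p up to 0.0696). The other Nrp1 probe, at 0.252 reference units, gave -1.75, -1.58, -1.32, -1.64 and -1.58 in db/db against -0.65 to 0.06 in db/+, and a log2 difference of -1.40 ± 0.14 SE (adjusted p over all probes = 6.95e-05). Both probes thus lay lower, with sizes that differ. Nrp2 showed 0.00, 0.08, 0.09, 0.15 and 0.00 in db/+ and 0.79, 0.60, 0.81, 0.79 and 0.72 in db/db, far apart between the groups. Nrp2 rose 1.60-fold (log2 difference of 0.68 ± 0.05 SE, adjusted p = 1.09e-05), and its dimmer probe by a log2 difference of 0.28 ± 0.06 SE (adjusted p over all probes = 0.00808). A probe listed under Npn2, an older name of Nrp2, gave 0.03 ± 0.10 SE at 0.065 reference units and was not counted. The reference channel of Nrp2 was itself unequal, at 0.222 units on db/db arrays and 0.142 on db/+ arrays, so the size of its change is uncertain.

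**Figure D3:**
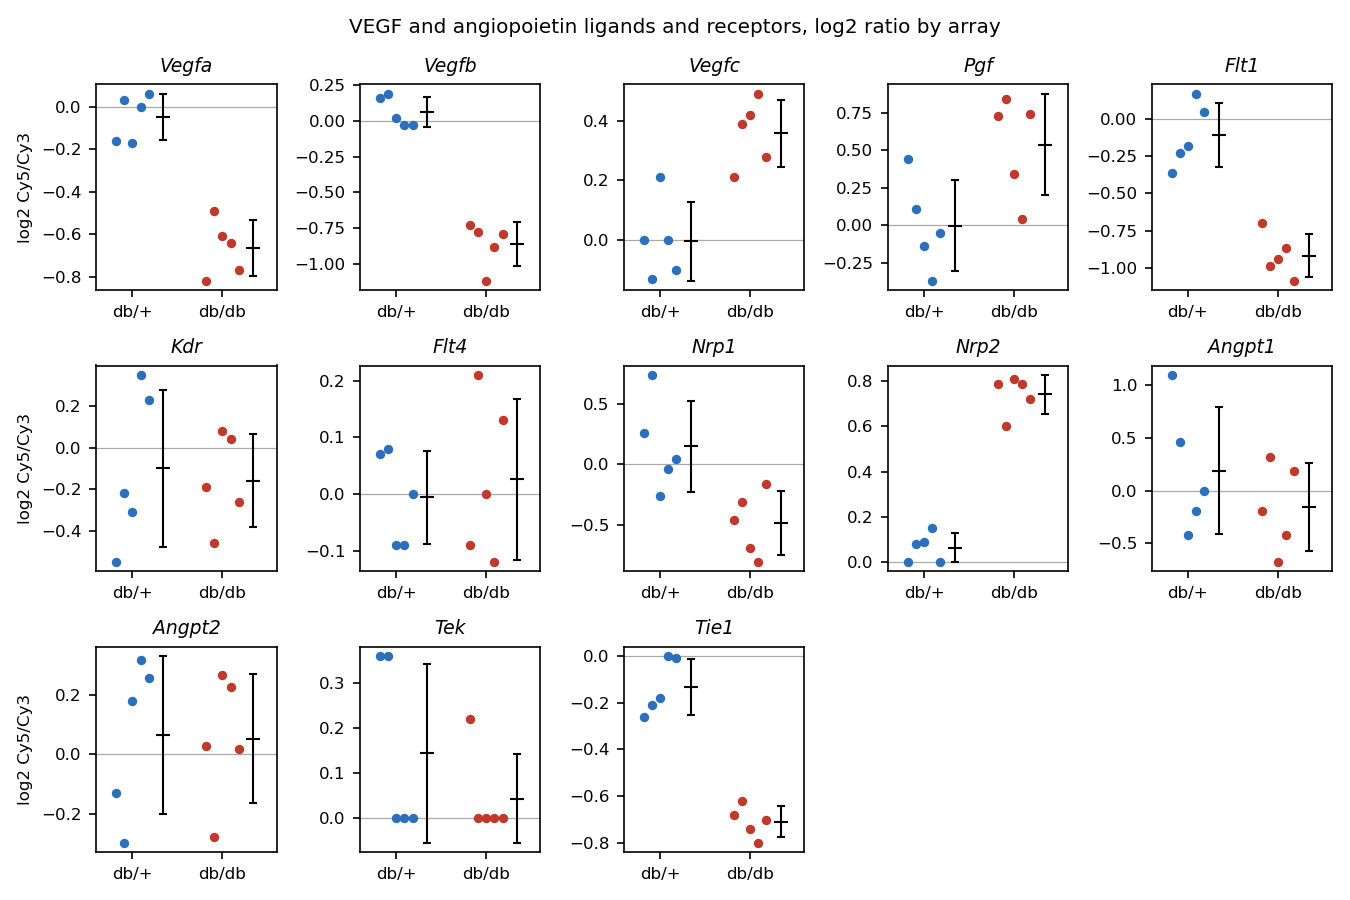
Log2 ratio of Cy5 over Cy3 (vertical axis, scaled to each gene) for the VEGF and angiopoietin ligands and receptors on the 5 db/+ (blue) and 5 db/db (red) arrays, with mean and SD in black. Vegfa, Vegfb, Flt1 and Tie1 lay lower on every db/db array, Nrp2 lay higher, and Kdr, Angpt1, Angpt2 and Tek overlapped.

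In the angiopoietin axis, Tie1 was the 1 gene of 4 that passed the test, 25% against 35.2% of all genes. Tie1, an orphan receptor that partners with Tek, had log2 ratios of -0.26, -0.21, -0.18, 0.00 and -0.01 in db/+ and -0.68, -0.62, -0.74, -0.80 and -0.70 in db/db. It was lower on all db/db arrays and fell 1.49-fold (log2 difference of -0.57 ± 0.06 SE, adjusted p = 9.24e-05). Tek, the receptor of angiopoietins, gave 0.36, 0.36, 0.00, 0.00 and 0.00 in db/+ and 0.22, 0.00, 0.00, 0.00 and 0.00 in db/db, steps that stem from rounding at 0.066 reference units. The ligand Angpt1, which activates Tek, showed 1.10, 0.46, -0.42, -0.19 and 0.00 in db/+ and -0.19, 0.32, -0.68, -0.42 and 0.19 in db/db, with the widest db/+ spread of the axis and overlap throughout. For Angpt2, which competes with Angpt1, the ratios were -0.13, -0.30, 0.18, 0.32 and 0.26 in db/+ and 0.03, -0.28, 0.27, 0.23 and 0.02 in db/db. None of these 3 passed (log2 differences of -0.10 ± 0.09, -0.34 ± 0.30 and -0.01 ± 0.15 SE, adjusted p = 0.453, 0.426 and 0.977).

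Of 5 Notch genes 3 rose and 1 fell, together 80% against 35.2% of all genes, a share that rests on few genes. Jag1, a ligand that promotes sprouting by competing with Dll4, had log2 ratios of 0.14, -0.15, -0.04, 0.19 and 0.18 in db/+ and 1.44, 1.13, 1.00, 0.81 and 0.94 in db/db. The groups were clearly apart, and Jag1 rose 2.00-fold (log2 difference of 1.00 ± 0.12 SE, adjusted p = 0.000179). Dll4, the ligand of endothelial tip cells, gave 0.18, 0.30, -0.24, -0.20 and 0.13 in db/+ and 0.76, 0.47, 0.39, 0.30 and 0.71 in db/db. Its groups met at 0.30, and it rose 1.41-fold (log2 difference of 0.49 ± 0.13 SE, adjusted p = 0.0159). The ligand Dll1 fell 1.48-fold (log2 difference of -0.57 ± 0.13 SE, adjusted p = 0.00736), with db/+ replicate 2 at -0.29 inside the db/db range of -0.69 to -0.26. Notch4, an endothelial receptor, rose 1.23-fold (log2 difference of 0.30 ± 0.09 SE, adjusted p = 0.026), and lost its call without db/+ replicate 3, 4 or 5 or db/db replicate 2, 3 or 5 (adjusted p up to 0.0636). Notch1, the broadly expressed receptor, showed 0.00, 0.00, -0.17, 0.13 and 0.00 in db/+ and 0.19, 0.16, 0.00, 0.06 and 0.11 in db/db, which overlapped and did not pass (log2 difference of 0.11 ± 0.06 SE, adjusted p = 0.173).

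Of the remaining 5 vascular signals 4 rose, 80% against 17.1% of all genes, again a share of few genes. Edn1, whose promoter window is printed with that of Vegfa, encodes the vasoconstrictor endothelin, and its log2 ratios were 0.53, -0.19, -0.22, 0.32 and 0.19 in db/+ and 1.78, 1.87, 1.65, 1.58 and 1.58 in db/db. The gap between the groups was wide, and Edn1 rose 2.97-fold (log2 difference of 1.57 ± 0.15 SE, adjusted p = 4.38e-05). Its probe was dim, at 0.22 units of mean Cy5 intensity in db/db and 0.088 in db/+, where a rounding step is a large part of a value. The endothelin receptor gene Ednrb rose 1.37-fold (log2 difference of 0.45 ± 0.12 SE, adjusted p = 0.0131), from 0.06 to 0.086 units. Apln, the peptide apelin of growing vessels, gave -0.13, -0.27, 0.11, 0.01 and 0.12 in db/+ and 0.74, 0.63, 0.39, 1.17 and 0.55 in db/db, with db/db replicate 4 highest, and rose 1.66-fold (log2 difference of 0.73 ± 0.14 SE, adjusted p = 0.00314). Its receptor gene Aplnr rose 1.27-fold (log2 difference of 0.34 ± 0.09 SE, adjusted p = 0.0139), at 0.094 units in db/db and 0.072 in db/+. Pdgfb, which draws pericytes to vessels, did not pass (log2 difference of -0.09 ± 0.09 SE, adjusted p = 0.461).

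Other genes of the same pathways were read from the same fit, and 36 of 105 rose and 9 fell, together 42.9% against 35.2% of all genes. Their median log2 difference was 0.20. Without probes under the median intensity 22 of 56 rose and 8 fell, against 2381 higher and 3051 lower of 10458 genes. The shares called then lay close together. Among 25 further endothelial genes 9 rose and 2 fell (44%). Procr, the endothelial protein C receptor, rose 3.24-fold (log2 difference of 1.70 ± 0.20 SE, adjusted p = 0.000181). Both parts of the adrenomedullin receptor were higher, Ramp2 2.85-fold and Calcrl 1.94-fold (adjusted p = 0.000128 and 0.00149). The GTPase-activating protein gene Arap3 rose 1.58-fold (adjusted p = 1.9e-05). Of 14 pericyte and vascular smooth muscle genes 5 rose and 9 did not pass, a share of 35.7% that is close to that of all genes. Kcnj8, the pore of the vascular ATP-sensitive potassium channel, rose 5.51-fold (log2 difference of 2.46 ± 0.10 SE, adjusted p = 5.25e-07), Pdgfrb, the receptor of Pdgfb, 2.63-fold, the aminopeptidase gene Anpep 2.47-fold and the pericyte regulator gene Rgs5 1.49-fold (adjusted p from 6.71e-05 to 0.000288 for the last 3).

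Of 5 lymphatic genes 3 rose, 60% against 17.1% of all genes. They were the growth factor gene Vegfd (1.49-fold, adjusted p = 0.00273), podoplanin Pdpn (2.67-fold, 0.0062) and Reln (1.09-fold, 0.031). Angiogenesis regulators rose in 14 of 38 cases and fell in 2 (42.1%). The semaphorin gene Sema3c rose 3.72-fold, Col18a1, whose collagen yields endostatin, 4.07-fold and the endothelin receptor gene Ednra 2.71-fold, while the guidance receptor gene Robo1 fell 1.90-fold (adjusted p from 2.65e-06 to 2.24e-05 for these 4 genes). In the wider Notch pathway 5 of 23 genes rose and 5 fell (43.5%). The Notch target genes Hey1 (2.26-fold), Heyl (2.23-fold) and Nrarp (1.53-fold) rose, and the coactivator gene Maml1 fell 1.50-fold (adjusted p from 0.000103 to 0.000638).

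Markers of some other cell types changed as well, and their part in the changes was not tested. Of 9 fibroblast markers 8 rose, with a median log2 difference of 1.62 and a summed Cy5 intensity of 0.71 to 1.72 units in db/+ and 3 to 6.13 units in db/db. Vcam1 and several pericyte genes are also known from mesenchymal cells. Of 13 macrophage markers 7 rose and 6 did not pass (sums of 17.2 to 27.9 and 27.8 to 35.6 units). Of 8 erythroid markers 3 haemoglobin genes rose and Ahsp fell (sums of 4.09 to 15.9 and 15.2 to 41.5 units). Of 8 lymphocyte markers 2 rose (7.67 to 19.4 and 12.6 to 15.7 units), of 8 duct markers 3 rose (16.3 to 23.3 and 24.4 to 30.2 units), and of 8 acinar markers tested 2 fell (42.1 to 63.6 and 20.3 to 44.9 units). Few bright genes carried some of these sums. Cd3e, which did not pass, gave most of the lymphocyte sum (means of 12.3 units in db/+ and 12.6 in db/db) and Spp1 most of the duct sum (14.3 and 19.7). Itgam, which did not pass (12.2 and 12.1), and C1qa (8.05 and 14.2) gave most of the macrophage sum. The shares called, 25% of lymphocyte and acinar and 37.5% of duct markers, were below or close to the 35.2% of all genes. At an unadjusted limma p under 0.05 there were 3 lymphocyte, 6 acinar and 6 duct markers. Their lists had median log2 differences of 0.11, -0.72 and 0.50, against -0.02 over all genes. Adipocyte markers gave 0 calls of 8 by limma (2 at an unadjusted p under 0.05), at sums of 0.249 to 0.38 and 0.299 to 0.445 units. Beta cell markers, which define the labelled tissue, were present at 16.1 to 18.8 units in db/+ and 9.79 to 10.9 units in db/db over the 9 tested, of which 5 fell, while Slc2a2, Slc30a8 and Iapp were left untested, with under 3 values in 1 group or both. Kcnj11 gave most of the beta cell sum, at means of 13 units in db/+ and 6.8 in db/db.

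Within db/+, replicate 1 had the highest median log2 ratio over the 17 surface and adhesion genes (0.27, against -0.16 to 0.00 on the other db/+ arrays) and also over the fibroblast markers (0.47). All db/db arrays lay above it, at 0.35 to 0.63 for the surface genes and 1.27 to 2.44 for the fibroblast markers. Without this array 22 of the 46 genes rose and 6 fell, beside 3299 higher and 3423 lower of all 19497 genes then tested. In the Cy3 channel, which held the reference on every array, 3 of 19557 genes passed the same test between the arrays of the groups (0.0153%, and 4.9% at an unadjusted p under 0.05). Of the 46 genes, 4 had an unadjusted Cy3 p under 0.05, which were Edn1, Flt4, Selp and Pdgfb, and Edn1 had Cy3 means of 0.068 units on db/db and 0.078 on db/+ arrays.

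**Figure D4:**
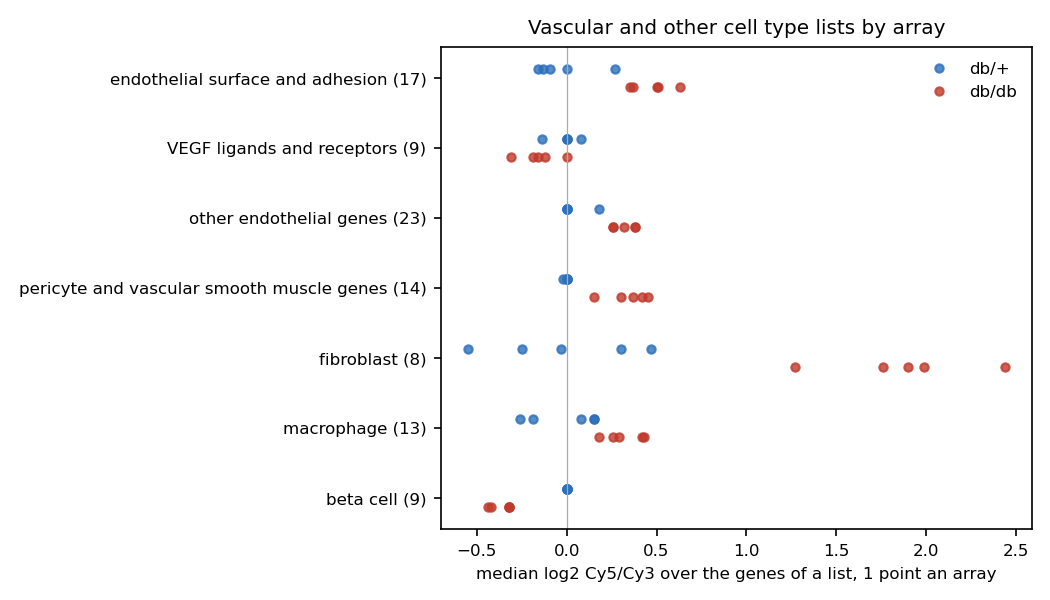
Median log2 ratio over the genes of each list (horizontal axis) on the 5 db/+ (blue) and 5 db/db (red) arrays, 1 point an array, with the number of genes with 10 values in brackets. Surface and other endothelial genes lay higher on all db/db arrays, fibroblast markers lay farthest apart at 1.27 to 2.44 in db/db, and beta cell markers lay lower.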

How the data were processed

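Per the labels' protocols, Trizol RNA was amplified in 2 rounds from 100 ng and labelled with Cy5 (islet samples) or Cy3 (db/+ reference). The submitters' processing notes name Agilent Feature Extraction 8.5.1.1. The deposited intensities of both channels are in arbitrary units, and the deposited log10 ratios were checked to equal log10 of Cy5 over Cy3. How background and dyes were treated, and why some spots are blank, is not stated by the labels or file headers.

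The log10 ratios were turned into log2 ratios with no further scaling. Symbols were updated through RefSeq (GRCm38.p6). A probe needed 3 or more values per group, and the probe brightest in Cy3 stood for its gene. The test was limma's (version 3.58.1, R 4.3.3) moderated test, without covariates, 2-sided, with Benjamini-Hochberg adjustment over 19557 genes and a threshold of 0.05, checked on simulated data. The number of arrays limits precision, and 27.5% of Cy3 intensities did not exceed 0.05 units. The Cy3 control used quantile-normalized intensities. Members and lists were chosen with earlier results of these data known. Values are given by array for genes that passed with separated groups and for Pecam1, Cdh5, Kdr, Flt1, Tek, Vegfa, Angpt1, Angpt2, Dll4 and Notch1. In the other pathway lists the genes of smallest adjusted p are named, at most 4 a list. Alternatives covered normalization, the Cy5 signal alone, filters, probe handling, the variance model, array weights, the replicate block, an exact permutation test and leaving out each array. Figures used Python 3.11.15 and matplotlib 3.10.9.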

Additional observations from a re-analysis of the deposited data

Results flagged for a closer look

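In 7 of the 90 groups of 5 values with any spread, 1 array lay far from the others of its group, where chance gives about 1 in 20 for unrounded values, a rate that cannot be applied to groups of tied values such as those of Tek and Aplnr. The db/+ replicate 1 stood high in Sele (log2 ratio 1.00), Selp (0.95) and Cav1 (0.42). The db/+ replicate 2 stood low in Cldn5 (-0.26), and db/+ replicate 4 stood low in Aplnr (-0.19), where the 4 other db/+ values were all 0.00. Among db/db arrays, replicate 4 stood low in Robo4 (0.04) and replicate 1 stood high in Tek (0.22), again against 4 values of 0.00. Sele, Tek and Aplnr are dim probes whose values move in rounding steps.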

How the results depend on the processing

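Over 22 alternatives, 12 of the 27 genes that passed kept call and direction in each that tested them (21 for Edn1 and Aplnr, which the median intensity filter removed), which were Robo4, Vcam1, Egfl7, Sox18, Sox7, Vegfa, Vegfb, Nrp2, Jag1, Edn1, Apln and Aplnr. The change of largest effect was quantile normalization between arrays, after which 1677 genes were higher and 1508 lower. Among the 46 genes 9 were higher and 3 lower, and among the other pathway genes 18 and 2. The 15 lost calls among the 46 included Flt1 (adjusted p = 0.0656) and Tie1 (0.0838), and their directions were kept. Before this step the log2 ratios had SDs of 0.194 to 0.309 on db/+ arrays and 0.477 to 0.537 on db/db arrays. Quantile normalization makes these spreads equal by construction, and the part of this in the lost calls was not tested. Leaving out probes under the median intensity left 22 higher and 8 lower genes among the other pathway genes, of 56 tested instead of 105. Over all genes 2381 were then higher and 3051 lower, of 10458 tested. In the Cy5 signal without the reference, Flt4 turned from 0.03 to -0.40 (adjusted p = 0.0291). Its mean Cy5 intensities were 0.136 units in db/db and 0.172 in db/+. The Cy3 means of Flt4 were also unequal, at 0.134 units on db/db arrays and 0.172 on db/+ arrays. The part of this unequal reference in the turn was not tested. Leaving out each array gave 2960 to 3299 higher and 3075 to 3492 lower genes, 17 to 22 and 6 to 8 among the 46 genes, and 35 to 40 and 6 to 9 among the other pathway genes. Whether the replicate numbers pair the samples could not be settled from 5 pairs. Of the same-numbered pairs 2 of 5 correlated above 0.1 (0.0366 to 0.221), and 2 of 5 db/db arrays matched their own number best. With the replicate block 19 of the 46 genes were higher and 7 lower, and Cldn5 missed the threshold (0.59, adjusted p = 0.102). Rounding limits dim probes most.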
